A study of Mus musculus with 8 samples.

Results

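The comparison set regulatory T (Treg) cells against the remaining CD4+ T cells of NOD mice that carry a diverse, polyclonal repertoire of T cell receptors. It used 4 of the 8 libraries in the series, 2 of polyclonal Treg and 2 of polyclonal non-Treg cells, called A and B in each group and chosen by their labels alone. All 4 came from the spleen of NOD.FoxP3GFP mice, a diabetes-prone strain in which green fluorescent protein reports Foxp3. Treg cells were CD4+ and reporter-positive, and non-Treg cells were CD4+ and reporter-negative. The labels call these cells WT and name no treatment, age or further allele for either group, so both groups share the NOD background and the reporter. The other 4 libraries, from the monoclonal NOD.TCRab.FoxP3GFP.Rag-/- mice of the same study, took no part in the contrast. Whether A and B were separate animals, and whether animals were pooled, is not stated in the labels. The p-values therefore measure only how far these samples spread, which may be technical variation.

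Treg cells restrain other immune cells, and mice or people without working Foxp3 develop fatal autoimmunity. Foxp3 works with the Ikaros family, NFAT, Runx1 and other factors to hold a programme of surface receptors high, while it keeps effector cytokines low. Treg cells make almost no interleukin-2 of their own and consume what other T cells release through a high-affinity receptor whose α chain is Il2ra. They also depend on signals through the T cell receptor, CD28 and members of the TNF receptor superfamily, several of which lead to NF-kB.

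Values are CPM, the reads of a gene scaled so that a library's genes sum to 1000000, and each pair of values is given in the order A, B. The 4 libraries held 14076330 to 19722321 reads, so that 3 reads, the most that a count of 0 allows, correspond to 0.152 to 0.213 CPM by counting error alone. Cd4 measured 1076 and 1148 CPM in Treg and 1606 and 1664 CPM in non-Treg libraries. Cd3e, part of the antigen receptor, measured 647 and 805 CPM in Treg and 623 and 659 CPM in non-Treg libraries. Cd8a, which marks the other main T cell lineage, was at 0 to 0.129 CPM, so Cd4, Cd3e and Cd8a did not go against the CD4+ label. The CD8 marker list, Cd8a and Cd8b1, summed to 5.68 and 7.71 CPM in Treg and 6.71 and 6.20 CPM in non-Treg libraries. Nearly all of that level was therefore Cd8b1, and the source of its reads was not tested. The Treg libraries differed more from each other than the non-Treg libraries did. The SD over genes of the log2 difference between A and B was 0.51 in Treg and 0.32 in non-Treg cells, and 695 genes differed by at least 2-fold between the Treg libraries against 186 between the non-Treg libraries. That gap followed transcript length. With genes cut into 5 equal groups by length, from the shortest to the longest, the median log2 difference of Treg B minus Treg A was 0.32, 0.18, 0.05, -0.04 and -0.22, while in non-Treg cells it lay between -0.03 and 0.02. The share of genes called in the comparison was 3.22% in the shortest and 10.6% in the longest group. With each library's trend on transcript length removed, 868 of the 869 genes called below stayed called. That fit was added after the data were seen. It also took out part of the gap between the Treg libraries, and it called 1340 genes in all. What caused the gap was not tested.

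**Figure D1:**
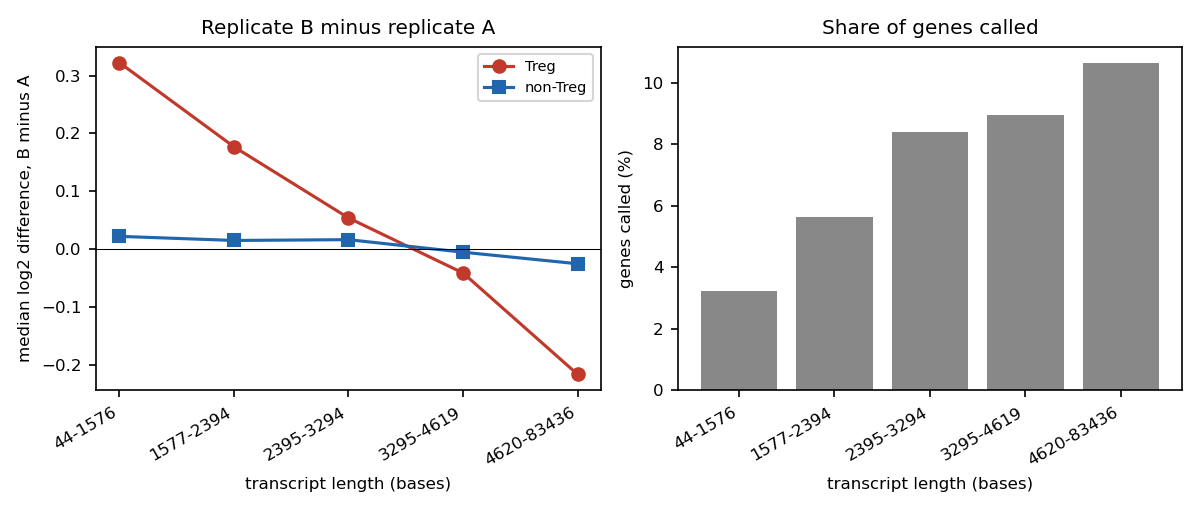
Left, the median over genes of the log2 difference of replicate B minus replicate A, on the vertical axis, by 5 groups of transcript length in bases, for Treg (circles) and non-Treg (squares) libraries. Right, the percentage of genes in each length group past the threshold of the test. The Treg line falls from 0.32 to -0.22 while the non-Treg line stays near 0.

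Polyclonal Treg cells differed from non-Treg cells in 869 of 11791 genes tested (7.37%), by limma on log2(CPM + 1) with adjusted p under 0.05. Of these, 533 were higher (4.52%) and 336 lower (2.85%) in Treg cells. Changes of at least 2-fold on that scale made up 371 of the increases (3.15%) and 205 of the decreases (1.74%), and 21 increases and 15 decreases reached 8-fold. In all 869 genes both libraries of a group lay above both of the other. Such separation was common, at 26.2% of all genes for Treg above non-Treg and 22.5% for Treg below, and so says little by itself. The median log2 fold change of all genes tested was 0.01. With Treg A, Treg B, non-Treg A and non-Treg B left out in turn, 3307, 3387, 351 and 332 genes were called, and counts set in brackets after a list follow the same order. Without Treg B, 49.2% of the calls were higher in Treg cells, against 61.3% with all 4 libraries. Scaled so that the CD3 genes are level, 515 genes were called. That scaling divided Treg A and B by 0.812 and 1.18, and non-Treg A and B by 1.02 and 1.03. It thus moved the Treg libraries in opposite directions, whereas TMM factors lay between 0.990 and 1.01 and gave 852 calls. Of 192 called genes that are list members or are named for their size or position, 95 were called whichever library was left out, and for the others that are named the adjusted p without non-Treg A or B follows in the same paragraph. Of the 95, Nt5e, Tcf7 and Tgfbr2 lost the call when scaled to the CD3 genes (adjusted p from 0.0535 to 0.158). Bcl2l1, Capg, Mctp2, Pmaip1, Rapgef4, Tgfbr1 and Tnfrsf18 lost it without the mean-variance trend and robust estimate (0.0501 to 0.0806). Leaving out a Treg library could hardly lose a call, because the spread then came from the non-Treg pair alone, the closer pair. A call kept whichever library was left out thus rests on the fits without a non-Treg library. In those fits the spread came from the Treg pair alone, the wider pair, whose gap followed transcript length. The shares of all genes set beside the lists below belong to the fit with all 4 libraries. They do not apply to the counts in brackets, since many more genes passed without a Treg library and fewer without a non-Treg library.

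**Figure D2:**
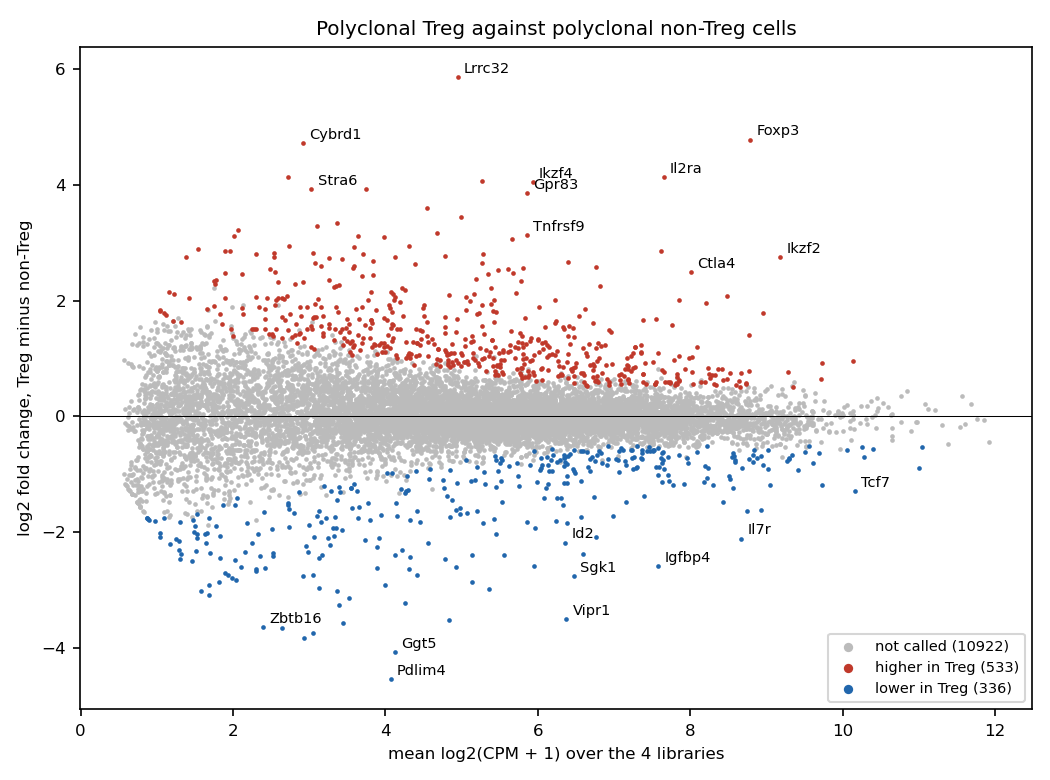
Log2 fold change of Treg minus non-Treg on log2(CPM + 1) against the mean log2(CPM + 1) of the 4 libraries, 1 point for each of 11791 genes. The 533 genes called higher are red and the 336 called lower are blue. Foxp3, Il2ra, Ikzf2 and Ctla4 combine a large change with a high level, and Il7r and Tcf7 do so among the genes that fell.

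Foxp3, the reporter's gene and hence the check of the labels, measured 2349 and 2281 CPM in Treg and 81.9 and 84.2 CPM in non-Treg libraries. Both Treg libraries stood far above both non-Treg libraries, with a mean of 2315 ± 48.1 against 83.1 ± 1.65 CPM (SD, n = 2 each), 27.9-fold apart (log2 fold change 4.78 ± 0.13, adjusted p = 4.24e-07). On mm9 the deposited table places Foxp3 (NM_001199347) on the plus strand at chrX:7156802-7172369. Ppp1r3fos, a noncoding transcript at chrX:7150726-7158142 on the same strand, overlaps its first part. It measured 186 and 132 CPM in Treg and 8.35 and 8.39 CPM in non-Treg libraries (log2 fold change 4.07 ± 0.21, adjusted p = 2.37e-05), and reads of the stretch that both genes share cannot be told apart. Ppp1r3f, the gene on the other strand just before Foxp3, measured 92.5 and 98.4 CPM in Treg and 73.1 and 73.9 CPM in non-Treg libraries and was not called (adjusted p = 0.170).

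The defining surface and nuclear genes of Treg cells were higher as a group. All 29 members of the Treg identity list were tested and all 29 were higher, with a median log2 fold change of 2.26 and a range from 0.68 to 5.86, against 4.52% of all genes. The list was drawn up from knowledge of Treg cells and with earlier results of these data known, so its direction is no independent evidence. Some members are counted again in lists below. Of them, 4 stand in the TNF receptor list, 3 each in the CD28 family, IL-2 and Ikaros lists, and 1 in the homing list. With each library left out in turn, 29, 29, 27 and 26 of the 29 were called.

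Lrrc32, which encodes GARP, the protein that holds latent TGF-β on the surface of activated Treg cells, measured 235 and 234 CPM in Treg and 5.25 and 1.61 CPM in non-Treg libraries. It was almost silent in non-Treg cells and showed the largest change of any named gene on the log2(CPM + 1) scale (log2 fold change 5.86 ± 0.36, adjusted p = 5.50e-05). Il2ra, the α chain of the high-affinity interleukin-2 receptor, measured 896 and 788 CPM in Treg and 45.8 and 48.0 CPM in non-Treg libraries (log2 fold change 4.14 ± 0.13, adjusted p = 1.42e-06). Ctla4, which strips CD80 and CD86 from antigen-presenting cells, measured 632 and 591 CPM in Treg and 109 and 106 CPM in non-Treg libraries and so was present at a clear level in non-Treg cells too (log2 fold change 2.50 ± 0.13, adjusted p = 2.37e-05). Gpr83, a G protein-coupled receptor long used as a Treg marker, measured 214 and 228 CPM in Treg and 14.8 and 13.6 CPM in non-Treg libraries (log2 fold change 3.87 ± 0.16, adjusted p = 4.81e-06). Nrp1, a semaphorin receptor common on thymus-derived Treg cells, measured 287 and 302 CPM in Treg and 91.3 and 93.7 CPM in non-Treg libraries, a smaller step in which the replicates differed little (log2 fold change 1.66 ± 0.13, adjusted p = 0.000139). Folr4, a folate receptor relative found on Treg cells, measured 448 and 752 CPM in Treg and 157 and 141 CPM in non-Treg libraries, with Treg B well above Treg A (log2 fold change 1.96 ± 0.22, adjusted p = 0.00102). Penk, the precursor of enkephalin peptides, measured 51.4 and 98.2 CPM in Treg and 8.73 and 10.3 CPM in non-Treg libraries (log2 fold change 2.78 ± 0.30, adjusted p = 0.000853). Swap70, a regulator of the cytoskeleton, measured 110 and 125 CPM in Treg and 20.8 and 17.8 CPM in non-Treg libraries (log2 fold change 2.55 ± 0.18, adjusted p = 9.00e-05). Klrg1, a receptor of highly differentiated lymphocytes, was low in all 4 libraries and still separated, at 26.6 and 37.6 CPM in Treg and 2.78 and 1.74 CPM in non-Treg libraries (log2 fold change 3.34 ± 0.32, adjusted p = 0.000426). At the lower end of the list stood Icos, a costimulator of the CD28 family, at 282 and 288 CPM in Treg and 177 and 178 CPM in non-Treg libraries (log2 fold change 0.68 ± 0.13, adjusted p = 0.0115). Its adjusted p was 0.275 without non-Treg A and 0.285 without non-Treg B.

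**Figure D3:**
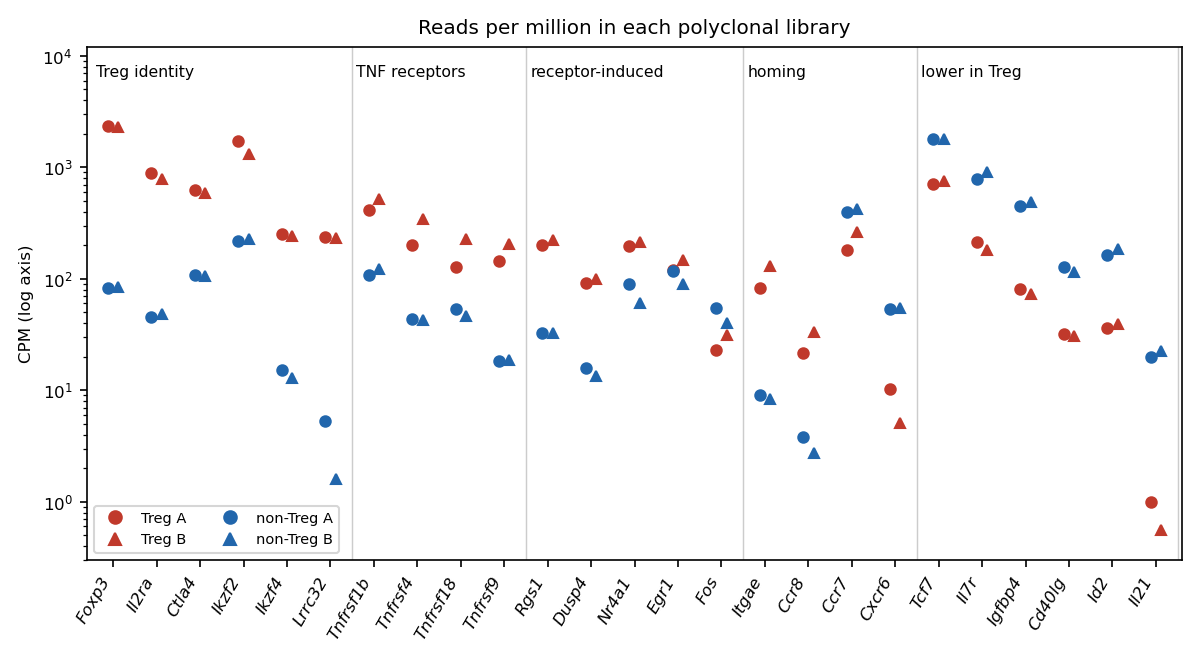
CPM of 25 genes in each of the 4 libraries on a log axis, with Treg libraries in red, non-Treg libraries in blue, circles for A and triangles for B. Foxp3 lies at 2349 and 2281 CPM in the Treg libraries and at 81.9 and 84.2 CPM in the non-Treg libraries, while the points of Egr1 lie close together.

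The Ikaros family of zinc finger transcription factors split. Of its 5 members, 3 were higher (3, 4, 2 and 2) and 1 was lower in Treg cells. Over all genes 4.52% were called higher and 2.85% lower, and the 3 higher members also stand in the Treg identity list. Ikzf4, or Eos, a partner of Foxp3 in gene silencing, measured 254 and 242 CPM in Treg and 15.1 and 12.9 CPM in non-Treg libraries (log2 fold change 4.06 ± 0.16, adjusted p = 4.81e-06). Ikzf2, or Helios, which stabilises the Treg state, measured 1723 and 1314 CPM in Treg and 217 and 227 CPM in non-Treg libraries (log2 fold change 2.75 ± 0.16, adjusted p = 3.71e-05). Ikzf3, or Aiolos, measured 457 and 370 CPM in Treg and 268 and 233 CPM in non-Treg libraries, a small difference (log2 fold change 0.72 ± 0.15, adjusted p = 0.0222). Ikzf1, Ikaros itself, went the other way and measured 626 and 559 CPM in Treg and 1034 and 1032 CPM in non-Treg libraries (log2 fold change -0.80 ± 0.13, adjusted p = 0.00633). Ikzf5 measured 49.3 and 33.7 CPM in Treg and 35.2 and 36.2 CPM in non-Treg libraries, and its groups overlapped. Per kilobase of transcript, Ikzf2 stood at 161 CPM in Treg against 23.6 CPM in non-Treg cells (group means), while Ikzf1 stood at 115 CPM in Treg against 200 CPM in non-Treg cells (group means). Ikzf3 lost the call without non-Treg A and without non-Treg B (adjusted p = 0.157 and 0.436), as did Ikzf1 (0.193 and 0.208).

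Most, but not all, listed genes of interleukin-2 signalling were higher. Of 14 members of the IL-2 and STAT5 list tested, 10 were higher (12, 11, 6 and 4), against 4.52% of all genes, with a median of 0.76. Il2rb, the β chain that carries the signal together with the common γ chain, measured 868 and 968 CPM in Treg and 275 and 255 CPM in non-Treg libraries (log2 fold change 1.79 ± 0.13, adjusted p = 0.000123). Il2rg, the γ chain, did not separate the groups, at 742 and 865 CPM in Treg and 744 and 750 CPM in non-Treg libraries (log2 fold change 0.10 ± 0.14, adjusted p = 0.773). Among the kinases on those chains, Jak3 measured 509 and 475 CPM in Treg and 328 and 318 CPM in non-Treg libraries (log2 fold change 0.61 ± 0.13, adjusted p = 0.0211). Jak1 measured 1047 and 1058 CPM in Treg and 1211 and 1236 CPM in non-Treg libraries and was not called (log2 fold change -0.22 ± 0.13, adjusted p = 0.410). Stat5a, 1 of a pair of transcription factors switched on by the receptor, measured 162 and 196 CPM in Treg and 107 and 112 CPM in non-Treg libraries (log2 fold change 0.70 ± 0.14, adjusted p = 0.0202). Its twin Stat5b measured 497 and 469 CPM in Treg and 396 and 380 CPM in non-Treg libraries (log2 fold change 0.31 ± 0.13, adjusted p = 0.204). The 2 genes are close relatives, and the treatment of reads that fit both was not stated in the labels. Of the feedback inhibitors that STAT5 induces, 3 were higher and 1 was not called. Cish measured 219 and 275 CPM in Treg and 53.0 and 48.3 CPM in non-Treg libraries (log2 fold change 2.26 ± 0.16, adjusted p = 9.47e-05). Socs2 measured 35.9 and 42.3 CPM in Treg and 5.57 and 10.3 CPM in non-Treg libraries (log2 fold change 2.22 ± 0.30, adjusted p = 0.00238). Socs1 rose less and measured 46.7 and 64.3 CPM in Treg and 22.2 and 21.1 CPM in non-Treg libraries (log2 fold change 1.30 ± 0.21, adjusted p = 0.00632). Socs3 stayed at 209 and 219 CPM in Treg and 211 and 197 CPM in non-Treg libraries. Il2 itself was near the limit of detection, with 0 and 0.558 CPM in Treg and 0.506 and 2.97 CPM in non-Treg libraries, and did not pass the filter on low values. Without non-Treg A and B the adjusted p was 0.380 and 0.488 for Jak3 and 0.306 and 0.240 for Stat5a, and Socs1 had 0.0505 without non-Treg B.

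The Cish promoter is shown because it holds 2 copies of the STAT motif TTCNNNGAA side by side, at the 251st and the 262nd base of a window from 250 bases before to 50 bases after the annotated start (RefSeq, GRCm38.p6, chr9:107296409-107296708, plus strand). Capitals mark the motif, which reads the same on both strands.

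Cish: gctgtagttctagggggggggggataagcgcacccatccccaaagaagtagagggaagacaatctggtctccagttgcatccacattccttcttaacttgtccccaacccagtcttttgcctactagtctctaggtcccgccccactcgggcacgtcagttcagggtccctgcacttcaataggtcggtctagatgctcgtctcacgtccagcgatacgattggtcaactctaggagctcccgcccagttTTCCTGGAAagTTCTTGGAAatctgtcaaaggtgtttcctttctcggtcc

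Among the 12 list members with a promoter in the RefSeq table, 2 held the motif, Cish and Socs3, which was not called. Across all 32851 promoters of this length 8.30% held it, and 9.55% of 27025 genes had it in at least 1 promoter. A match of letters describes the sequence and does not show binding.

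Several TNF receptors were higher. Of 18 members of the superfamily tested, 6 were higher (9, 8, 4 and 4) and 1 was lower, or 33.3% and 5.56% against 4.52% and 2.85% of all genes, with a median of 0.52. Tnfrsf9, or 4-1BB, which activated Treg cells display, measured 144 and 203 CPM in Treg and 18.4 and 18.8 CPM in non-Treg libraries (log2 fold change 3.13 ± 0.19, adjusted p = 5.50e-05). Tnfrsf4, or OX40, measured 201 and 347 CPM in Treg and 44.0 and 43.0 CPM in non-Treg libraries (log2 fold change 2.57 ± 0.23, adjusted p = 0.000302). Tnfrsf18, or GITR, its neighbour on chromosome 4, measured 126 and 226 CPM in Treg and 54.0 and 46.5 CPM in non-Treg libraries (log2 fold change 1.74 ± 0.25, adjusted p = 0.00323). In all 3 genes Treg B lay above Treg A. Tnfrsf1b, the TNF receptor that supports Treg expansion, measured 416 and 517 CPM in Treg and 108 and 121 CPM in non-Treg libraries (log2 fold change 2.01 ± 0.15, adjusted p = 0.000139). Its counterpart Tnfrsf1a, which can signal death, measured 43.8 and 52.2 CPM in Treg and 51.3 and 59.9 CPM in non-Treg libraries and overlapped (log2 fold change -0.21 ± 0.18, adjusted p = 0.602). Tnfrsf8, or CD30, was the lowest of those called higher, at 6.82 and 20.1 CPM in Treg and 2.03 and 2.26 CPM in non-Treg libraries, and lost the call without non-Treg A (adjusted p = 0.0932) or B (0.0762). Fas, a death receptor, measured 52.2 and 56.7 CPM in Treg and 32.6 and 33.0 CPM in non-Treg libraries (log2 fold change 0.71 ± 0.17, adjusted p = 0.0385), with 0.400 and 0.399 without non-Treg A and B. Tnfrsf26 was the member that fell, at 78.3 and 68.9 CPM in Treg and 132 and 151 CPM in non-Treg libraries (log2 fold change -0.94 ± 0.15, adjusted p = 0.00500, and 0.132 without non-Treg B). Cd27 and Tnfrsf25, a pair of costimulators, did not pass the threshold (adjusted p = 0.109 and 0.0532). Cd27 measured 491 and 567 CPM in Treg and 408 and 378 CPM in non-Treg libraries. For Tnfrsf25 the values were 144 and 148 CPM in Treg and 102 and 104 CPM in non-Treg libraries.

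Some NF-kB genes were higher as well. Of 32 members of the pathway and target list, 12 were higher (19, 17, 4 and 4) and 1 lower, against 4.52% and 2.85% of all genes, with a median of 0.49. The other 19 did not pass. Cd83, a surface protein induced by activation, measured 120 and 176 CPM in Treg and 14.4 and 18.9 CPM in non-Treg libraries (log2 fold change 3.06 ± 0.22, adjusted p = 0.000123). Bcl2l1, which encodes the survival protein Bcl-xL, measured 65.1 and 105 CPM in Treg and 30.1 and 28.1 CPM in non-Treg libraries (log2 fold change 1.48 ± 0.23, adjusted p = 0.00501). Icam1, an adhesion molecule, measured 92.7 and 118 CPM in Treg and 49.5 and 48.3 CPM in non-Treg libraries (log2 fold change 1.08 ± 0.16, adjusted p = 0.00460). Bcl3, a nuclear partner of NF-kB, measured 62.4 and 79.6 CPM in Treg and 34.1 and 30.1 CPM in non-Treg libraries (log2 fold change 1.11 ± 0.19, adjusted p = 0.00725, and 0.0874 without non-Treg B). Nfkb2, the subunit of the alternative pathway, measured 143 and 161 CPM in Treg and 71.6 and 84.1 CPM in non-Treg libraries (log2 fold change 0.96 ± 0.15, adjusted p = 0.00490, and 0.113 without non-Treg A). Of the other subunits, Nfkb1 rose by 0.58 ± 0.13 and Rel by 0.68 ± 0.17 on the log2 scale. Rela measured 176 and 211 CPM in Treg and 163 and 166 CPM in non-Treg libraries and was not called, and Relb was separated but not called (log2 fold change 0.63 ± 0.23, adjusted p = 0.164). Nfkb1 had adjusted p = 0.445 and 0.526 without non-Treg A and B, and Rel had 0.230 and 0.565. Upstream of these, Map3k14, the kinase of the alternative pathway, fell from 125 and 119 CPM in non-Treg to 72.2 and 88.3 CPM in Treg libraries (log2 fold change -0.61 ± 0.15, adjusted p = 0.0439, and 0.476 and 0.378 without non-Treg A and B). Malt1, which links the T cell receptor to NF-kB, measured 259 and 193 CPM in Treg and 317 and 330 CPM in non-Treg libraries and did not pass (adjusted p = 0.0891).

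Promoters of 3 of the called genes are shown with the κB consensus in capitals, searched on both strands of the same 300-base windows (RefSeq, GRCm38.p6). Bcl2l1 lies at chr2:152830668-152830967 on the minus strand (1 of 3 promoters of the gene), Bcl3 at chr7:19822706-19823005 on the minus strand, and Nfkb2 at chr19:46304487-46304786 on the plus strand (also 1 of 3 promoters). Nfkb2 holds 3 matches, of which 2 overlap and run together in capitals.

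Bcl2l1: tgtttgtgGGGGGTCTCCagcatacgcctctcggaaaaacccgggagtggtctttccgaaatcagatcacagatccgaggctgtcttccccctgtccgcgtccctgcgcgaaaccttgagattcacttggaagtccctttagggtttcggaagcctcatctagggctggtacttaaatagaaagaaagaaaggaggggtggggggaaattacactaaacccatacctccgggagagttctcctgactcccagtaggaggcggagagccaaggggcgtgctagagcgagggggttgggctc

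Bcl3: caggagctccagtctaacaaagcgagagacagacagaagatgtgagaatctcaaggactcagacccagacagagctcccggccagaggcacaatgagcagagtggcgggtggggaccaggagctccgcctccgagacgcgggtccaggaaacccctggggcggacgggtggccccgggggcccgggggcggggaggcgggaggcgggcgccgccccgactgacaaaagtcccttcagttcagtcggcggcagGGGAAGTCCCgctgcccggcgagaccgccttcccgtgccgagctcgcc

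Nfkb2: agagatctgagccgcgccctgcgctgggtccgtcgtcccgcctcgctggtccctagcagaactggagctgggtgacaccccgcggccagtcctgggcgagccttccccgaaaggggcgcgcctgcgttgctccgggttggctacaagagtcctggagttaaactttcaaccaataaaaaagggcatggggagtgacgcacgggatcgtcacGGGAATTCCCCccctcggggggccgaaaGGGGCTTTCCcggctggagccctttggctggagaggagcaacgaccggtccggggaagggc

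Of the 25 list members with a promoter in the table, 11 held the consensus (44%), against 5.14% of all genes and 4.51% of all promoters. Among those called higher in Treg cells it was 6 of 9, and among the rest 5 of 16. The list was made of known targets and pathway members, and no factor's binding was measured here.

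Co-receptors moved in part. Of 19 genes of the CD28 family and other co-receptors, 6 were higher (11, 8, 2 and 2), against 4.52% of all genes, with a median of 0.31. Ctla4 and Tigit were called whichever library was left out. Tigit, an inhibitory receptor of activated Treg cells, measured 71.8 and 102 CPM in Treg and 20.9 and 19.9 CPM in non-Treg libraries (log2 fold change 2.01 ± 0.21, adjusted p = 0.000650). Cd28, the main costimulator, measured 559 and 440 CPM in Treg and 585 and 651 CPM in non-Treg libraries (log2 fold change -0.32 ± 0.15, adjusted p = 0.307). Pdcd1, which encodes PD-1, measured 51.1 and 115 CPM in Treg and 46.6 and 40.0 CPM in non-Treg libraries, a value that rested on Treg B and was not called (log2 fold change 0.82 ± 0.32, adjusted p = 0.191). Lag3 and Havcr2, a further pair of inhibitory receptors, overlapped between the groups. Lag3 measured 29.1 and 43.7 CPM in Treg and 33.6 and 26.4 CPM in non-Treg libraries. For Havcr2 the values were 4.12 and 4.92 CPM in Treg and 2.72 and 4.52 CPM in non-Treg libraries. Cd2, Icos, Cd200 and Cd96 rose by 0.57 to 0.75 on the log2 scale, with adjusted p between 0.257 and 0.620 when non-Treg A or B was left out.

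Molecules through which Treg cells act were unequal. Of 16 suppressive and repair mediators tested, 6 were higher (13, 8, 6 and 6) and 2 lower, against 4.52% and 2.85% of all genes, with a median of 1.27. Of the list's members, 5 also stand in the identity list. Entpd1 and Nt5e are the ectoenzymes that turn extracellular ATP into adenosine, and both were higher. Entpd1 measured 43.5 and 55.9 CPM in Treg and 16.8 and 18.0 CPM in non-Treg libraries (log2 fold change 1.45 ± 0.21, adjusted p = 0.00356). Nt5e measured 277 and 281 CPM in Treg and 132 and 127 CPM in non-Treg libraries (log2 fold change 1.10 ± 0.13, adjusted p = 0.00104) and was thus well expressed in non-Treg cells as well. Ebi3, a subunit of interleukin-35 and interleukin-27, measured 18.5 and 24.5 CPM in Treg and 2.85 and 4.65 CPM in non-Treg libraries (log2 fold change 2.26 ± 0.32, adjusted p = 0.00303). Il12a, the other subunit of interleukin-35, had 1.07 CPM in Treg A and 0 in the other 3 libraries. Pdcd1lg2, a ligand of PD-1, measured 30.0 and 37.0 CPM in Treg and 10.8 and 7.87 CPM in non-Treg libraries (log2 fold change 1.74 ± 0.26, adjusted p = 0.00375). Il10 measured 7.74 and 3.90 CPM in Treg and 1.46 and 1.36 CPM in non-Treg libraries, separated but not past the threshold (log2 fold change 1.45 ± 0.40, adjusted p = 0.0701). Tgfb1 measured 162 and 226 CPM in Treg and 134 and 118 CPM in non-Treg libraries (log2 fold change 0.61 ± 0.18, adjusted p = 0.0786). Areg, a repair factor of tissue Treg cells, lay under 1 CPM in all 4 libraries. Both lower members encode killing molecules. Fasl, the ligand of Fas, measured 4.33 and 3.85 CPM in Treg and 17.7 and 19.1 CPM in non-Treg libraries (log2 fold change -1.93 ± 0.28, adjusted p = 0.00330, and 0.0569 without non-Treg B). Prf1, perforin, measured 5.54 and 7.86 CPM in Treg and 17.6 and 16.2 CPM in non-Treg libraries (log2 fold change -1.23 ± 0.28, adjusted p = 0.0310, and 0.342 and 0.271 without non-Treg A and B).

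Few genes of the T cell receptor complex were called. Of 32 genes of the complex and its proximal signalling, 1 was higher and 3 lower (11, 16, 1 and 1), against 4.52% and 2.85% of all genes, with a median of -0.13. In 16 of the 32 both Treg libraries lay below both non-Treg libraries, against 22.5% of all genes. Lck, the first kinase of the cascade, measured 1097 and 1407 CPM in Treg and 1287 and 1288 CPM in non-Treg libraries, and Zap70 measured 345 and 379 CPM in Treg and 361 and 359 CPM in non-Treg libraries, with overlapping groups in both. Cd4 fell (log2 fold change -0.56 ± 0.13, adjusted p = 0.0344). Themis, an adaptor that tunes receptor signals, measured 65.1 and 40.1 CPM in Treg and 165 and 179 CPM in non-Treg libraries (log2 fold change -1.73 ± 0.21, adjusted p = 0.00160). The adjusted p of Cd4 was 0.534 and 0.662 without non-Treg A and B. Sh2d2a, an adaptor of activated T cells, was the gene that rose (log2 fold change 0.54 ± 0.13, adjusted p = 0.0439, and 0.532 and 0.546).

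Genes induced by receptor signalling were higher in part. Of 27 early response genes tested, 10 were higher (16, 14, 5 and 5), against 4.52% of all genes, with a median of 0.46. Rgs1, which dampens chemokine receptor signals, measured 199 and 224 CPM in Treg and 32.7 and 32.5 CPM in non-Treg libraries (log2 fold change 2.66 ± 0.14, adjusted p = 2.37e-05). Dusp4, a phosphatase of MAP kinases, measured 92.1 and 99.7 CPM in Treg and 15.7 and 13.3 CPM in non-Treg libraries (log2 fold change 2.65 ± 0.19, adjusted p = 9.62e-05). Nr4a1, the orphan nuclear receptor that tracks receptor signal strength, measured 197 and 215 CPM in Treg and 90.1 and 60.8 CPM in non-Treg libraries (log2 fold change 1.46 ± 0.19, adjusted p = 0.00193). Irf4, which drives effector Treg cells, measured 133 and 111 CPM in Treg and 55.5 and 58.9 CPM in non-Treg libraries (log2 fold change 1.07 ± 0.15, adjusted p = 0.00306). Spry1, an inhibitor of Ras signalling, measured 62.9 and 63.7 CPM in Treg and 27.4 and 19.3 CPM in non-Treg libraries (log2 fold change 1.42 ± 0.21, adjusted p = 0.00389), and its adjusted p was 0.240 when the spread was shared with the monoclonal libraries. Of the AP-1 family, Fos, Fosb and Jun were not called. Fos measured 22.7 and 31.3 CPM in Treg and 54.6 and 40.3 CPM in non-Treg libraries (log2 fold change -0.79 ± 0.23, adjusted p = 0.0824). Fosb measured 19.3 and 12.9 CPM in Treg and 31.1 and 26.3 CPM in non-Treg libraries (log2 fold change -0.82 ± 0.26, adjusted p = 0.0987). Both Treg libraries lay below both non-Treg libraries in each gene, and neither passed the threshold. Jun was uneven, at 49.8 and 69.4 CPM in Treg and 119 and 48.2 CPM in non-Treg libraries. Egr1 measured 119 and 147 CPM in Treg and 117 and 90.6 CPM in non-Treg libraries (log2 fold change 0.36 ± 0.17, adjusted p = 0.289), while its relatives Egr2 and Egr3 rose by 0.89 ± 0.21 and 0.62 ± 0.15. The adjusted p of Egr2 was 0.355 and 0.119, and that of Egr3 0.451 and 0.430, without non-Treg A and B. Cd69, an early activation marker, was level at 75.6 and 79.4 CPM in Treg and 80.4 and 83.8 CPM in non-Treg libraries (log2 fold change -0.08 ± 0.14, adjusted p = 0.823).

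Receptors for cytokines changed in both directions. Of 28 tested, 7 were higher (12, 12, 2 and 2) and 8 lower (10, 11, 5 and 5), against 4.52% and 2.85% of all genes, with a median of 0.13. The receptors of TGF-β, the cytokine that induces Foxp3 outside the thymus, divided. Tgfbr1, the kinase subunit recruited second, measured 220 and 146 CPM in Treg and 75.2 and 76.7 CPM in non-Treg libraries (log2 fold change 1.23 ± 0.19, adjusted p = 0.00497). Tgfbr2, which binds the ligand, measured 248 and 258 CPM in Treg and 511 and 524 CPM in non-Treg libraries (log2 fold change -1.03 ± 0.13, adjusted p = 0.00144). The co-receptor Tgfbr3 measured 48.5 and 38.5 CPM in Treg and 153 and 160 CPM in non-Treg libraries (log2 fold change -1.83 ± 0.16, adjusted p = 0.000276). Il1rl1, the interleukin-33 receptor of tissue Treg cells, measured 53.7 and 85.3 CPM in Treg and 14.4 and 18.4 CPM in non-Treg libraries (log2 fold change 1.99 ± 0.25, adjusted p = 0.00188). Il1r1, the signalling receptor of interleukin-1, measured 4.90 and 1.62 CPM in Treg and 17.8 and 21.5 CPM in non-Treg libraries (log2 fold change -2.39 ± 0.40, adjusted p = 0.00756). Il1r2, its decoy, measured 3.77 and 14.5 CPM in Treg and 2.34 and 0.516 CPM in non-Treg libraries with most of its reads in Treg B (log2 fold change 1.93 ± 0.60, adjusted p = 0.0964). Il7r, the interleukin-7 receptor, whose low surface level is used to sort human Treg cells, measured 212 and 180 CPM in Treg and 792 and 903 CPM in non-Treg libraries (log2 fold change -2.11 ± 0.14, adjusted p = 9.00e-05). Il17rb, a receptor of interleukin-25, measured 7.60 and 3.65 CPM in Treg and 28.2 and 25.2 CPM in non-Treg libraries (log2 fold change -2.13 ± 0.33, adjusted p = 0.00497). Smaller increases were seen for Ifngr1, Il10ra, Ifnar1, Ifnar2 and Il21r, at 0.51 to 0.83 on the log2 scale. All 5 lost the call without non-Treg A (adjusted p from 0.173 to 0.595) and without non-Treg B (0.114 to 0.616). Il18rap, Il9r and Il17ra fell by 0.66 to 0.94, and these 3 lost the call likewise (0.108 to 0.179 and 0.0552 to 0.585).

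**Figure D4:**
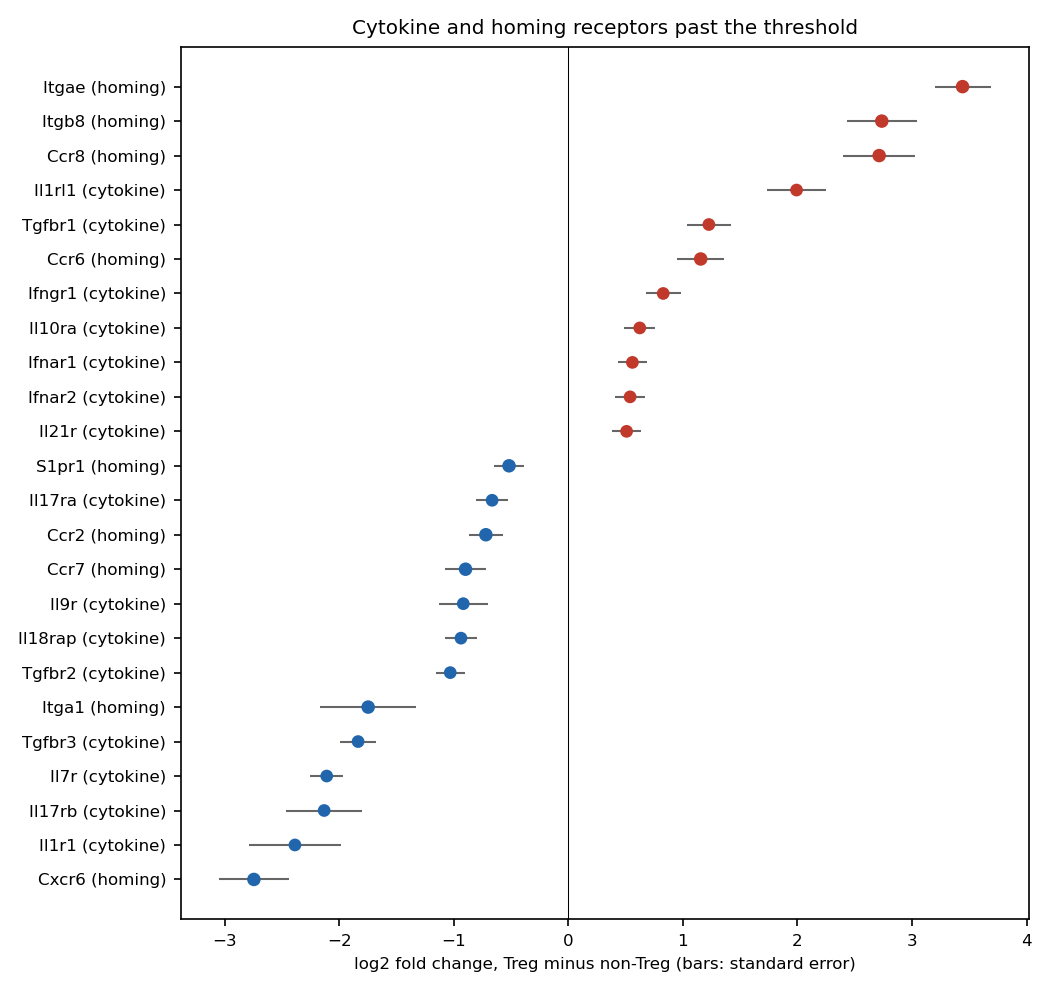
Log2 fold change of Treg minus non-Treg, with its standard error as a bar, for the 24 cytokine receptors and homing receptors past the threshold. Itgae, Itgb8 and Ccr8 stand at the upper end and Cxcr6, Il1r1 and Il17rb at the lower end.

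Homing receptors also went both ways. Of 33 chemokine receptors and homing molecules tested, 4 were higher (12, 6, 4 and 3) and 5 lower (11, 13, 1 and 1), which is 12.1% and 15.2% against 4.52% and 2.85% of all genes, with a median of -0.13. Itgae, the integrin CD103 that binds E-cadherin on epithelium, measured 83.3 and 130 CPM in Treg and 8.99 and 8.39 CPM in non-Treg libraries (log2 fold change 3.44 ± 0.24, adjusted p = 0.000104). Itgb8, an integrin chain that activates latent TGF-β, measured 24.1 and 23.3 CPM in Treg and 3.48 and 2.07 CPM in non-Treg libraries (log2 fold change 2.74 ± 0.31, adjusted p = 0.000984). Ccr8, a receptor of skin and tumour Treg cells, measured 21.5 and 33.0 CPM in Treg and 3.80 and 2.71 CPM in non-Treg libraries (log2 fold change 2.71 ± 0.31, adjusted p = 0.00118). Ccr6, which guides cells to mucosa and inflamed tissue, measured 62.3 and 55.3 CPM in Treg and 30.0 and 22.1 CPM in non-Treg libraries (log2 fold change 1.16 ± 0.20, adjusted p = 0.00966, and 0.152 without non-Treg B). Cxcr6 fell, at 10.2 and 5.07 CPM in Treg and 54.0 and 54.5 CPM in non-Treg libraries (log2 fold change -2.74 ± 0.30, adjusted p = 0.000915). Among receptors of lymph node entry, Ccr7 measured 182 and 265 CPM in Treg and 400 and 419 CPM in non-Treg libraries (log2 fold change -0.90 ± 0.18, adjusted p = 0.0172, and 0.111 and 0.167 without non-Treg A and B). S1pr1, the receptor of lymph node exit, was slightly lower (log2 fold change -0.52 ± 0.13, adjusted p = 0.0461, and 0.559 and 0.699), as was Ccr2 (log2 fold change -0.72 ± 0.15, adjusted p = 0.0217, and 0.334 and 0.302). Cxcr3 and Cd44, marks of activated cells, were not called. Cxcr3 measured 59.1 and 95.5 CPM in Treg and 104 and 101 CPM in non-Treg libraries. For Cd44 the values were 204 and 263 CPM in Treg and 211 and 210 CPM in non-Treg libraries.

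Genes of naive and resting T cells were lower in part. Among 25 such genes of the list, 9 were lower (12, 12, 4 and 3) and 1 higher, against 2.85% and 4.52% of all genes, with a median of -0.35. Tcf7, or TCF-1, a nuclear factor of naive and memory T cells, measured 709 and 747 CPM in Treg and 1787 and 1784 CPM in non-Treg libraries and was still abundant in Treg cells (log2 fold change -1.29 ± 0.13, adjusted p = 0.000539). Its partner Lef1 measured 243 and 262 CPM in Treg and 485 and 587 CPM in non-Treg libraries (log2 fold change -1.08 ± 0.14, adjusted p = 0.00225, and 0.0695 without non-Treg B). Klf2, which drives S1pr1, measured 254 and 354 CPM in Treg and 498 and 616 CPM in non-Treg libraries (log2 fold change -0.89 ± 0.18, adjusted p = 0.0205, and 0.0608 and 0.302 without non-Treg A and B). Foxo1, the upstream factor of Klf2 and Il7r, measured 661 and 624 CPM in Treg and 493 and 504 CPM in non-Treg libraries and was not called (log2 fold change 0.37 ± 0.13, adjusted p = 0.137). Bach2, which keeps cells from effector fates, measured 210 and 157 CPM in Treg and 190 and 193 CPM in non-Treg libraries with overlapping groups. Id3, an inhibitor of E proteins, was the member that rose, at 47.0 and 74.4 CPM in Treg and 25.8 and 32.5 CPM in non-Treg libraries (log2 fold change 1.01 ± 0.24, adjusted p = 0.0397, and 0.295 and 0.0874), opposite to its relative Id2 below.

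The list of genes known to be repressed in Treg cells was mostly lower. Of 27 tested, 17 were lower (19, 19, 15 and 13) and 1 was higher, against 2.85% and 4.52% of all genes, with a median of -1.29. Like the identity list, it was chosen with its direction known. Pdlim4, a cytoskeletal adaptor, measured 5.68 and 0.811 CPM in Treg and 83.5 and 76.0 CPM in non-Treg libraries (log2 fold change -4.54 ± 0.51, adjusted p = 0.000995). On the log2(CPM + 1) scale this was the largest decrease among the named genes. Dapl1 measured 1.56 and 1.01 CPM in Treg and 31.6 and 26.9 CPM in non-Treg libraries (log2 fold change -3.73 ± 0.31, adjusted p = 0.000194). Vipr1, a receptor of vasoactive intestinal peptide, measured 28.5 and 19.5 CPM in Treg and 262 and 295 CPM in non-Treg libraries (log2 fold change -3.51 ± 0.19, adjusted p = 2.77e-05). Pde3b, a phosphodiesterase that breaks down cyclic AMP, measured 14.3 and 3.65 CPM in Treg and 100 and 91.4 CPM in non-Treg libraries, with Treg A above Treg B (log2 fold change -3.52 ± 0.46, adjusted p = 0.00198). Igfbp4, a binding protein of insulin-like growth factors, measured 81.1 and 73.4 CPM in Treg and 449 and 490 CPM in non-Treg libraries (log2 fold change -2.59 ± 0.13, adjusted p = 2.37e-05). Nsg2 measured 37.9 and 44.6 CPM in Treg and 220 and 217 CPM in non-Treg libraries (log2 fold change -2.38 ± 0.14, adjusted p = 5.39e-05). Cd40lg, the helper signal for B cells and dendritic cells, measured 32.0 and 30.4 CPM in Treg and 127 and 115 CPM in non-Treg libraries (log2 fold change -1.92 ± 0.15, adjusted p = 0.000164), with adjusted p = 0.166 when the spread was shared with the monoclonal libraries. Satb1, a chromatin organiser, measured 445 and 324 CPM in Treg and 733 and 692 CPM in non-Treg libraries (log2 fold change -0.91 ± 0.17, adjusted p = 0.0116, and 0.153 and 0.106 without non-Treg A and B). Ptpn22 and Zap70, which also stand in this list, differed by -0.06 and 0.01. Bcl2, a survival gene, was the member that rose (log2 fold change 0.83 ± 0.16, adjusted p = 0.0167, and 0.306 and 0.0825).

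**Figure D5:**
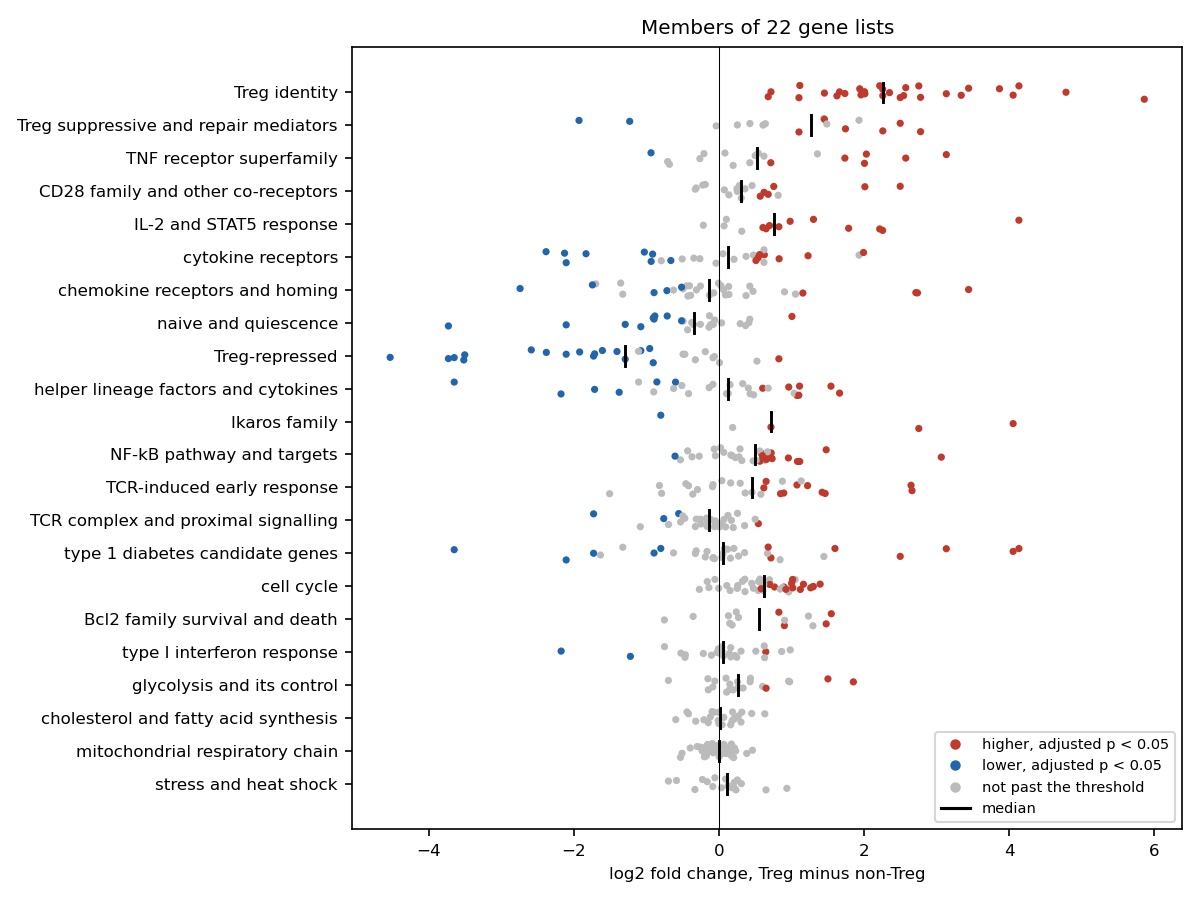
Log2 fold change of Treg minus non-Treg for each tested member of 22 gene lists, red for called higher, blue for called lower, grey for not past the threshold, with a black bar at the list's median. The Treg identity members all lie above 0, and the Treg-repressed members mostly below it.

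Factors and cytokines of helper lineages were mixed. Of 29 tested, 7 were higher (13, 12, 3 and 4) and 6 lower (9, 7, 2 and 2), against 4.52% and 2.85% of all genes, with a median of 0.13. Id2, an inhibitor of E proteins found in effector and innate-like lymphocytes, measured 35.9 and 39.4 CPM in Treg and 165 and 184 CPM in non-Treg libraries (log2 fold change -2.18 ± 0.15, adjusted p = 7.77e-05). Il21, a cytokine of follicular helper cells whose gene lies in a diabetes locus of NOD mice, measured 0.995 and 0.558 CPM in Treg and 19.9 and 22.5 CPM in non-Treg libraries (log2 fold change -3.65 ± 0.33, adjusted p = 0.000306). Tbx21, or T-bet, measured 19.0 and 14.2 CPM in Treg and 41.9 and 46.9 CPM in non-Treg libraries (log2 fold change -1.38 ± 0.22, adjusted p = 0.00575, and 0.0515 and 0.105 without non-Treg A and B). Ifng measured 2.20 and 5.98 CPM in Treg and 16.3 and 13.0 CPM in non-Treg libraries (log2 fold change -1.72 ± 0.40, adjusted p = 0.0343, and 0.231 and 0.111). Runx3, a factor of cytotoxic and Th1 cells, fell by 0.60 on the log2 scale and lost the call without non-Treg A (0.328) and B (0.482). On the other side, Lta, lymphotoxin α, measured 107 and 125 CPM in Treg and 39.7 and 38.5 CPM in non-Treg libraries (log2 fold change 1.54 ± 0.15, adjusted p = 0.000549). Tox, a nuclear factor of chronically stimulated cells, measured 129 and 162 CPM in Treg and 66.6 and 67.0 CPM in non-Treg libraries (log2 fold change 1.10 ± 0.15, adjusted p = 0.00306). Nfil3 measured 20.2 and 28.3 CPM in Treg and 6.58 and 7.16 CPM in non-Treg libraries (log2 fold change 1.66 ± 0.27, adjusted p = 0.00626, and 0.0509 without non-Treg A). Prdm1, or Blimp-1, measured 42.3 and 49.5 CPM in Treg and 23.1 and 23.0 CPM in non-Treg libraries (log2 fold change 0.96 ± 0.19, adjusted p = 0.0171, and 0.186 and 0.211). Maf, a factor of several helper lineages, measured 247 and 251 CPM in Treg and 163 and 164 CPM in non-Treg libraries (log2 fold change 0.60 ± 0.13, adjusted p = 0.0204, and 0.391 and 0.403). Gata3, the factor of Th2 cells, measured 149 and 168 CPM in Treg and 108 and 119 CPM in non-Treg libraries and was not called. Neither was Bcl6, the factor of follicular helper cells, at 58.9 and 70.8 CPM in Treg and 55.0 and 61.2 CPM in non-Treg libraries. The cytokines Il4, Il5, Il13, Il17a, Il17f, Il22, Il3 and Csf2 stayed at or below 2.26 CPM in every library.

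Some transcripts of natural killer and innate-like T cells were lower too. Zbtb16, or PLZF, the factor that directs innate-like T cells, measured 0.924 and 0.152 CPM in Treg and 18.3 and 16.8 CPM in non-Treg libraries (log2 fold change -3.64 ± 0.37, adjusted p = 0.000650). The receptor gene Klrd1 measured 0.568 and 0.507 CPM in Treg and 10.8 and 9.17 CPM in non-Treg libraries (log2 fold change -2.83 ± 0.35, adjusted p = 0.00160). Its relative Klrk1 measured 0.568 and 0.101 CPM in Treg and 9.30 and 7.75 CPM in non-Treg libraries (log2 fold change -2.85 ± 0.39, adjusted p = 0.00238). These 2 were the called members of 7 NK cell markers tested out of 15 listed, against 2.85% of all genes called lower. In all 7 both Treg libraries lay below both non-Treg libraries, against 22.5% of all genes, with a median log2 fold change of -1.29. The summed level of the list was 26.7 and 38.4 CPM in Treg and 87.2 and 87.2 CPM in non-Treg libraries. Klra3 and Klra9 were at 0 in all 4 libraries, and Ncr1 had at most 1.39 CPM. In a bulk sample, fewer cells of a type cannot be told apart from less RNA per cell, and the part of such cells in the lower helper genes was not tested.

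Of genes of antigen-presenting cells, several class II genes were lower in Treg libraries. The B cell list had 5 lower (6, 6, 5 and 1) and 1 higher of 10 tested out of 16 listed, against 2.85% and 4.52% of all genes, with summed levels of 97.5 and 135 CPM in Treg and 222 and 293 CPM in non-Treg libraries. H2-Aa, a class II chain, measured 5.75 and 9.33 CPM in Treg and 36.9 and 44.2 CPM in non-Treg libraries (log2 fold change -2.31 ± 0.28, adjusted p = 0.00136). Cd74, the class II chaperone, measured 47.9 and 52.8 CPM in Treg and 86.4 and 110 CPM in non-Treg libraries (log2 fold change -0.94 ± 0.17, adjusted p = 0.0101, and 0.260 without non-Treg B). H2-Ab1, H2-Eb1 and Cd22 fell by 1.12 to 1.72 and lost the call without non-Treg B (adjusted p from 0.103 to 0.519). Cd79b, a chain of the B cell receptor, went the other way at 8.03 and 15.5 CPM in Treg and 2.03 and 1.87 CPM in non-Treg libraries (log2 fold change 2.05 ± 0.38, adjusted p = 0.0119, and 0.0570 without non-Treg B). The defining B cell genes Ms4a1, Ebf1 and Pax5 had at most 0.570 CPM in any library, and Pax5 was at 0 in all 4. Of 6 dendritic cell markers tested out of 13, Siglech was lower, at 1.49 and 0.558 CPM in Treg and 10.9 and 7.42 CPM in non-Treg libraries (log2 fold change -2.35 ± 0.40, adjusted p = 0.00759, and 0.106 without non-Treg A). In 5 of the 6 both Treg libraries lay below both non-Treg libraries, against 22.5% of all genes, with a median log2 fold change of -1.19. For this list and the next 2, the shares over all genes were again 4.52% called higher and 2.85% called lower. The summed dendritic cell list was 46.7 and 59.2 CPM in Treg and 74.3 and 69.3 CPM in non-Treg libraries. Of 15 myeloid markers tested out of 22, Cybb was higher (log2 fold change 0.87 ± 0.21, adjusted p = 0.0397, and 0.175 and 0.498 without non-Treg A and B). Itgam was lower (log2 fold change -2.36 ± 0.49, adjusted p = 0.0199, and 0.0831 and 0.0622). The summed myeloid list was 153 and 124 CPM in Treg against 139 and 124 CPM in non-Treg libraries. Of 5 plasma cell markers tested, Xbp1, which other cells also express, was higher (log2 fold change 0.75 ± 0.17, adjusted p = 0.0303, and 0.499 and 0.0552). The part of these cells in the results was not tested.

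Some cell cycle genes were higher, and 28 of the 43 tested were not called. The other 15 were higher (30, 24, 0 and 2), against 4.52% of all genes, with a median of 0.62 over the list, and in 34 of the 43 both Treg libraries lay above both non-Treg libraries, against 26.2% of all genes. Without non-Treg A, 0 of the 43 passed the threshold by limma. Mki67, the proliferation marker, measured 297 and 230 CPM in Treg and 153 and 154 CPM in non-Treg libraries (log2 fold change 0.77 ± 0.15, adjusted p = 0.0170). Top2a, a topoisomerase of dividing cells, measured 167 and 154 CPM in Treg and 79.5 and 92.9 CPM in non-Treg libraries (log2 fold change 0.90 ± 0.14, adjusted p = 0.00559). Tyms, which makes thymidylate for DNA, measured 24.9 and 22.1 CPM in Treg and 9.75 and 8.65 CPM in non-Treg libraries (log2 fold change 1.26 ± 0.24, adjusted p = 0.0139). The mitotic spindle gene Tpx2 measured 26.6 and 32.3 CPM in Treg and 12.5 and 10.3 CPM in non-Treg libraries (log2 fold change 1.30 ± 0.24, adjusted p = 0.0118). Without non-Treg A the adjusted p of these 4 lay between 0.0642 and 0.200, and without non-Treg B it was 0.219 for Mki67, 0.199 for Tyms and 0.176 for Tpx2. Pcna, the replication clamp, measured 30.1 and 37.8 CPM in Treg and 29.5 and 31.0 CPM in non-Treg libraries, and the cell cycle inhibitor Cdkn1b measured 202 and 219 CPM in Treg and 223 and 240 CPM in non-Treg libraries, both uncalled.

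A few Bcl2 family genes were higher, among them genes that protect cells and genes that promote death. Of 14 Bcl2 family genes tested, 4 were higher (8, 6, 2 and 2) against 4.52% of all genes, and 10 were not called, with a median of 0.55. Bcl2l1 and Pmaip1 were called whichever library was left out. Bcl2, which protects cells, measured 497 and 385 CPM in Treg and 225 and 270 CPM in non-Treg libraries. Pmaip1, or Noxa, which promotes death, measured 58.5 and 36.1 CPM in Treg and 16.3 and 13.9 CPM in non-Treg libraries (log2 fold change 1.55 ± 0.26, adjusted p = 0.00772). Bid, also on that side, measured 39.5 and 52.1 CPM in Treg and 23.2 and 24.5 CPM in non-Treg libraries (log2 fold change 0.90 ± 0.21, adjusted p = 0.0323, and 0.295 and 0.249 without non-Treg A and B). Mcl1, a further survival gene, measured 869 and 884 CPM in Treg and 681 and 778 CPM in non-Treg libraries and was not called. Nor was Bcl2l11, the gene of Bim, at 113 and 106 CPM in Treg and 97.1 and 95.9 CPM in non-Treg libraries. The adjusted p of Bcl2 was 0.306 and 0.0825 without non-Treg A and B.

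Metabolic genes mostly showed no call. Of 22 glycolysis genes, 3 were higher (11, 5, 1 and 2), or 13.6% against 4.52% of all genes, with a median of 0.26. Slc2a3, the glucose transporter GLUT3, measured 219 and 191 CPM in Treg and 69.7 and 73.5 CPM in non-Treg libraries (log2 fold change 1.50 ± 0.14, adjusted p = 0.000344). Slc2a1, or GLUT1, measured 45.4 and 53.0 CPM in Treg and 47.0 and 41.8 CPM in non-Treg libraries and overlapped (log2 fold change 0.14 ± 0.18, adjusted p = 0.744). Slc16a3, a lactate exporter, measured 7.46 and 11.3 CPM in Treg and 1.39 and 2.32 CPM in non-Treg libraries (log2 fold change 1.85 ± 0.37, adjusted p = 0.0166, and 0.152 without non-Treg A). By limma 0 of 24 cholesterol and fatty acid synthesis genes were called, with 2 at an unadjusted p under 0.05 and 0 by edgeR and 0 by DESeq2. Of 47 respiratory chain genes, 0 were called by limma, 0 by edgeR and 0 by DESeq2, with 1 at an unadjusted p under 0.05 and a median of -0.00. In 45 of these 47 genes Treg B lay above Treg A, with a median log2 difference of 0.55 against 0.03 between the non-Treg libraries, and their median transcript length was 925 bases. Of 18 stress and heat shock genes, 0 were called by limma and 0 by edgeR and 1 by DESeq2, with 1 at an unadjusted p under 0.05. Type I interferon genes had 1 higher and 2 lower of 26 (3.85% and 7.69%, against 4.52% and 2.85% of all genes), with a median of 0.05. Oasl2, an antiviral enzyme relative, fell (log2 fold change -1.22 ± 0.29, adjusted p = 0.0353, and 0.262 and 0.415 without non-Treg A and B). Oas2, an antiviral enzyme, measured 9.24 and 11.1 CPM in Treg and 48.8 and 49.7 CPM in non-Treg libraries (log2 fold change -2.18 ± 0.22, adjusted p = 0.000547).

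Because the mice are diabetes-prone, candidate genes of type 1 diabetes were listed as well. Of 33 tested, 7 were higher (11, 11, 4 and 5) and 5 lower (11, 10, 3 and 3), or 21.2% and 15.2% against 4.52% and 2.85% of all genes, with a median of 0.05. Of the 7 that were higher, 6 (Il2ra, Ikzf4, Tnfrsf9, Ctla4, Ikzf3 and Icos) are also in the Treg identity list. The seventh, Cd101, an inhibitory receptor gene, measured 28.8 and 28.1 CPM in Treg and 7.53 and 10.1 CPM in non-Treg libraries (log2 fold change 1.60 ± 0.25, adjusted p = 0.00497, and 0.0666 without non-Treg A). The lower members were Il21, Il7r, Themis, Ccr7 and Ikzf1, given above, of which Ccr7 and Ikzf1 lost the call when non-Treg A or non-Treg B was left out, with adjusted p between 0.111 and 0.208. Ptpn22, a phosphatase gene, Ptpn2, its relative, and Sh2b3, an adaptor, differed by -0.06, 0.07 and 0.05.

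Large changes also reached genes outside these lists. Cybrd1, an iron reductase, measured 43.0 and 33.4 CPM in Treg and 0.127 and 0.904 CPM in non-Treg libraries (log2 fold change 4.73 ± 0.36, adjusted p = 0.000139). Fsd1l measured 32.3 and 21.8 CPM in Treg and 0.696 and 0.452 CPM in non-Treg libraries (log2 fold change 4.13 ± 0.34, adjusted p = 0.000199). Arhgap20, a GTPase activator, measured 59.2 and 44.9 CPM in Treg and 3.86 and 1.42 CPM in non-Treg libraries (log2 fold change 3.94 ± 0.36, adjusted p = 0.000344). Stra6, the receptor for retinol-binding protein, measured 26.6 and 35.8 CPM in Treg and 1.20 and 0.968 CPM in non-Treg libraries (log2 fold change 3.94 ± 0.31, adjusted p = 0.000162). Capn3, a calpain protease, measured 80.1 and 80.6 CPM in Treg and 7.59 and 4.26 CPM in non-Treg libraries (log2 fold change 3.60 ± 0.27, adjusted p = 0.000139). Pla2g4f, a phospholipase, measured 79.7 and 72.3 CPM in Treg and 7.72 and 7.36 CPM in non-Treg libraries (log2 fold change 3.17 ± 0.21, adjusted p = 7.12e-05). Rragd, a GTPase that senses amino acids for mTORC1, measured 38.4 and 33.4 CPM in Treg and 4.24 and 2.45 CPM in non-Treg libraries (log2 fold change 3.11 ± 0.30, adjusted p = 0.000437). Src, Cdhr3, Lypd1 and Rgs9 rose by 3.11 to 3.30 on the log2 scale, and Cdhr3 and Lypd1 lay under 1 CPM in both non-Treg libraries. In the genes of this paragraph the non-Treg level was at most 7.72 CPM in either library. Plk2, a stress-responsive kinase chosen here after its values were seen, measured 5.97 and 5.58 CPM in Treg and 0 and 0 CPM in non-Treg libraries and so was at least 30.1-fold higher in Treg cells, taking 3 reads per library as the limit for 0.

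Among the decreases, Ggt5, an enzyme that converts leukotrienes, measured 7.32 and 1.17 CPM in Treg and 79.5 and 62.5 CPM in non-Treg libraries (log2 fold change -4.07 ± 0.52, adjusted p = 0.00193). Adamts14, a procollagen protease, measured 1.28 and 0.811 CPM in Treg and 29.2 and 26.2 CPM in non-Treg libraries (log2 fold change -3.82 ± 0.31, adjusted p = 0.000184). Lrrc75b measured 4.05 and 0.963 CPM in Treg and 37.8 and 34.7 CPM in non-Treg libraries (log2 fold change -3.56 ± 0.42, adjusted p = 0.00133). App, the amyloid precursor gene, measured 2.84 and 1.98 CPM in Treg and 32.3 and 30.3 CPM in non-Treg libraries (log2 fold change -3.26 ± 0.28, adjusted p = 0.000276). Sgk1, a kinase that promotes Th17 fates, measured 32.5 and 34.0 CPM in Treg and 214 and 249 CPM in non-Treg libraries, high in both non-Treg libraries (log2 fold change -2.76 ± 0.15, adjusted p = 2.37e-05). Rapgef4, an exchange factor switched on by cyclic AMP, measured 21.5 and 6.64 CPM in Treg and 89.1 and 98.7 CPM in non-Treg libraries (log2 fold change -2.86 ± 0.41, adjusted p = 0.00361). Treg A stood above Treg B. Atp8b4, Lypd6b, Tdrp, Arhgap29, Mctp2 and Mtus1 fell by 2.75 to 3.21 on the log2 scale. Cacna1g, Fbn2, Glp1r, Il17rc and Pdzrn3 were called lower with 0 reads in both Treg libraries, at most 3.86 CPM in non-Treg libraries and at least 13.0-fold to 17.8-fold lower on the same limit of 3 reads per library. These 5 lost the call without non-Treg A (adjusted p from 0.163 to 0.394) and without non-Treg B (0.124 to 0.604).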

How the data were processed

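Poly-dT selected RNA was sequenced as single-end 50 bp reads, per the labels' protocols. The authors deposited CPM per gene, 1 RefSeq transcript for each of 24016 genes on mm9, and tools listed without a role are STAR 2.4.1a, HOMER 4.7, edgeR, Trimmomatic 0.33, CASAVA 1.8.2 and FastQC 0.10.1, per the submitters' processing notes. Each column sums to 1000000. The labels say that strand was kept, but not whether counting used it, so overlapping genes cannot be told apart. Whole reads could be recovered for 100% of values within 0.01 of a read, which gave the depths. No column of per-sample values was left unused for want of a label.

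Genes with at least 1 CPM in 2 or more of the 4 polyclonal libraries were kept and log2(CPM + 1) was compared with limma 3.58.1 (R 4.3.3), with a mean-variance trend and robust estimate, 2 libraries a group and Benjamini-Hochberg adjustment over all genes kept. The threshold was an adjusted p of 0.05. Fold changes are on the log2(CPM + 1) scale, which understates low genes, and errors are standard errors unless given as SD. A limit for 0 is 3 reads per library and covers counting error only. With 1 library left in a group, that library is assumed to vary like the other group. edgeR 4.0.16 and DESeq2 1.42.0 on the recovered reads were alternatives, as were TMM factors, scaling to the CD3 genes, a pseudocount of 0.25 CPM, no filter, no trend, the replicate letter as a block, a spread shared with the monoclonal libraries and each library left out. Removal of the length trend, alone or without a non-Treg library, was added after the data were seen. The scripts were tested on simulated data. Figures and summaries used Python 3.11.15 with numpy 2.4.6, pandas 2.3.3 and matplotlib 3.10.9.

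The members and gene lists were chosen with earlier results of these data known. Named genes were list members, the 20 largest changes each way with a mean of at least 2 on the log2 scale and groups that do not overlap, genes within 100 kb of 11 anchor genes (10 of which had such a neighbour), and the 10 largest gaps between Treg replicates. Promoter sequences came from RefSeq on GRCm38.p6, a different build from the deposited coordinates, and the 2 were not mixed. A few genes of the lists and named set are not reported here.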

Additional observations from a re-analysis of the deposited data

How the results depend on the processing

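In 16 alternatives (13 planned and 3 chosen after seeing the data), 0 of the 192 called genes that were followed changed direction. Most of these fits could not have reversed a gene, so this says little. In every called gene the libraries of the 2 groups did not overlap, so leaving out 1 library cannot change the sign. The replicate block, the shared spread, no filter and no trend leave the fold change itself as it was. Samples share the letters A and B, which the labels do not tie to a shared animal or batch, and 2 pairs (correlation of same-letter deviations 0.088) are too few to show whether they pair. The replicate block gave 1497 calls, 885 higher and 612 lower, with 10 mediators, 11 cytokine receptors, 11 helper genes higher, and 9 homing, 5 receptor complex and 8 diabetes genes lower. Scaling to the CD3 genes, under which the median over all genes was 0.069 against 0.01, gave 515 calls (352 higher, 163 lower) and kept 123 of the 192. By list it left higher 2 CD28 family, 5 IL-2, 3 cytokine receptor, 4 NF-kB, 6 early response, 9 cell cycle and 2 Bcl2 genes, and lower 4 cytokine receptor, 1 homing, 2 naive, 1 receptor complex and 3 diabetes genes. Without trend and robust estimate, 605 genes were called and 116 of the 192 kept. Higher then were 3 TNF receptor, 2 CD28 family, 5 IL-2, 1 cytokine receptor, 3 NF-kB, 6 early response, 5 cell cycle and 1 Bcl2 genes, and lower 2 homing, 4 naive, 1 receptor complex and 3 diabetes genes. DESeq2 called 1148 (10 mediators higher, and 8 homing, 6 receptor complex and 8 diabetes genes lower), edgeR 804, TMM factors 852, the smaller pseudocount 838, and the spread shared with the monoclonal libraries 1034 (6 receptor complex genes lower). No filter called 693 of 15238 genes (4 cytokine receptor, 6 early response and 8 cell cycle genes higher). With the length trend removed 1340 were called, 575 lower (8 homing, 6 receptor complex and 8 diabetes genes). Removed together with non-Treg A or B it was 746 and 672, with 4 and 4 cytokine receptors and 7 and 6 NF-kB genes higher and 3 and 3 homing genes lower, and 9 cell cycle genes in the second. The cause of these shifts was not tested.

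With 1 library left out in turn, calls ranged from 332 to 3387 (224 to 1831 higher, 108 to 1719 lower). Members higher ranged from 26 to 29 for identity, 6 to 13 for mediators, 4 to 9 for TNF receptors, 2 to 11 for the CD28 family, 4 to 12 for IL-2, 2 to 12 for cytokine receptors, 3 to 12 for homing, 3 to 13 for helper genes, 2 to 4 for Ikaros, 4 to 19 for NF-kB, 5 to 16 for early response, 4 to 11 for diabetes, 0 to 30 for the cell cycle, 2 to 8 for Bcl2 and 1 to 11 for glycolysis. Members lower ranged from 5 to 11 for cytokine receptors, 1 to 13 for homing, 3 to 12 for naive, 13 to 19 for Treg-repressed, 2 to 9 for helper, 1 to 16 for the receptor complex, 3 to 11 for diabetes and 1 to 6 for B cell genes. The 2 libraries a group limit every call.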

Other observations

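Of 47 genes within 100 kb of the anchor genes on mm9, 34 were tested and 5 were higher, against 4.52% of all genes. Besides Ppp1r3fos, Icos and Tnfrsf4, these were Syp and Suox. Syp, a synaptic vesicle gene near Foxp3, measured 15.9 and 27.1 CPM in Treg and 3.61 and 3.61 CPM in non-Treg libraries (log2 fold change 2.24 ± 0.32, adjusted p = 0.00356 by limma). Suox, the sulfite oxidase gene near Ikzf4, measured 63.4 and 66.5 CPM in Treg and 30.1 and 25.6 CPM in non-Treg libraries (1.20 ± 0.18, adjusted p = 0.00389 by limma, and 0.0637 without non-Treg B).

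Some genes differed between libraries of 1 group. Of the 10 with the largest gap between the Treg libraries, Ifi27l2a, an interferon-induced gene, measured 47.2 and 131 CPM in Treg and 64.7 and 71.8 CPM in non-Treg libraries, and S100a4, a calcium-binding protein gene, measured 34.2 and 95.1 CPM against 59.0 and 77.1 CPM. Serpina3g, a protease inhibitor gene, measured 38.9 and 97.3 CPM in Treg and 18.3 and 15.0 CPM in non-Treg libraries and was called higher (log2 fold change 1.83, adjusted p = 0.0173 by limma). Serpina3g was not among the genes followed through the alternatives. Hspa1b, a heat shock gene, was higher in B of both groups, at 35.0 and 90.6 CPM in Treg and 54.6 and 133 CPM in non-Treg libraries. Mpo, the myeloperoxidase of granulocyte precursors, was higher in A of both groups, at 44.8 and 14.8 CPM in Treg and 31.1 and 10.3 CPM in non-Treg libraries, and so was Car2, an erythroid carbonic anhydrase, at 46.3 and 9.33 CPM and 34.1 and 15.4 CPM. The erythroid and platelet list summed to 91.5 and 31.0 CPM in Treg and 65.9 and 33.8 CPM in non-Treg libraries. By limma 0 of its 8 tested members were called, 0 at an unadjusted p under 0.05, 0 by edgeR and 0 by DESeq2. Of 3 stromal markers tested, 0 were called by limma, with 2 at an unadjusted p under 0.05 and 1 each by edgeR and DESeq2. Of the CD8 T cell markers 1 was tested and 0 were called by limma, edgeR or DESeq2 or at an unadjusted p under 0.05.

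Xist, the transcript of the inactive X chromosome, measured 8.45 CPM in Treg A and 0 in the other 3 libraries, while the Y-linked Kdm5d measured 150 and 119 CPM in Treg and 145 and 135 CPM in non-Treg libraries. Of 4 sex-linked genes tested, 0 were called by limma, edgeR or DESeq2, with 0 at an unadjusted p under 0.05.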
